A study of Mus musculus with 6 samples.

Results

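Polyamines (putrescine, spermidine and spermine) are small positively charged molecules that bind RNA and DNA and are needed for growth and translation. Ornithine decarboxylase makes putrescine from ornithine, and S-adenosylmethionine decarboxylase makes the aminopropyl donor that spermidine synthase and spermine synthase add to it in turn. Spermine oxidase, spermidine/spermine acetyltransferase and polyamine oxidase run the pathway backwards, and antizyme, which rises with polyamine levels, removes ornithine decarboxylase. In skeletal muscle Odc1, Amd1 and Smox are known as genes that respond to androgens and to fibre growth or wasting.

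The 10 polyamine genes described here are Odc1, Amd1, Amd2, Srm, Sms, Sat1, Smox, Paox, Oaz1 and Azin1. They were found by gene symbol among the 53947 genes of the tables and were selected because Amd1 and Smox were much lower in HSA-LR than in WT muscle. The difference between HSA-LR and WT in their counts and TPM is therefore given as a description, and no p-value is given for any of them. All 10 were among the 13576 genes that passed the filter on low counts.

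Total RNA depleted of ribosomal RNA was sequenced from the quadriceps of mice aged 12 weeks, in 3 WT libraries and 3 libraries of HSALR mice, called HSA-LR here. The HSA-LR line has a transgene of human skeletal actin that contains an expanded CTG repeat (220 CTG). It is driven by the skeletal actin promoter, so the repeat RNA is made in muscle fibres. The labels give genotype and tissue but no sex, strain or litter, nor whether the libraries are from different animals, and the p-values below cover the spread among these libraries only. Libraries held 11468959 to 15023710 counts. 7SL and 7SK RNA took 14.1% to 15.5% of counts in WT and 18.8% to 43.9% in HSA-LR, with HSA-LR replicate 1 the highest. Skeletal fibre markers were abundant in all libraries, at a summed 117914 to 133787 CPM (counts relative to the TMM-normalised library size) in WT and 63896 to 119440 in HSA-LR, with a median log2 fold change of -0.38 over the 8 genes. Macrophage markers were higher in HSA-LR (summed 202 to 609 CPM, against 137 to 159), with 3 of 8 called higher by edgeR (adjusted p below 0.05). Those of fibroadipogenic progenitors were also higher (1703 to 5213, against 1355 to 1463), with 1 of 8 called (Col3a1). Of all tested genes, 4.28% were called higher. Both sums were highest in HSA-LR replicate 1. Adipocyte, tendon and red blood cell markers had no call but median log2 fold changes of 1.49, 1.24 and 1.16, with overlapping summed levels. Summed adipocyte markers reached 1634 CPM in HSA-LR replicate 3 (WT 75.0 to 519), and tendon and red blood cell markers 944 and 2042 CPM in HSA-LR replicate 1 (WT 145 to 283 and 355 to 600.0). Slow fibre markers had no call but varied widely within both groups. Their sums were 43.3, 981 and 38.0 CPM in WT replicates 1, 2 and 3, and 729, 165 and 88.5 CPM in HSA-LR. The part of these cell and fibre types in the values below was not tested. In a bulk sample, fewer cells of a type and less RNA per cell cannot be told apart. Although the labels give no sex, all 6 libraries had the expression pattern of male tissue. The Y-linked Ddx3y (43.1 to 62.7 CPM), Kdm5d, Uty and Eif2s3y were expressed in each, and Xist was at 0 to 0.0706 CPM.

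Amd1 and Amd2 both encode S-adenosylmethionine decarboxylase, and the sequences of their transcripts determine how far their reads can be separated. On GRCm39, Amd1 lies at chr10:40162797-40178185 and Amd2 at chr10:35584671-35587888, both on the minus strand. Amd1 has 8 exons in the transcript compared here and Amd2 has 1. Their coding sequences, both of 1002 bases, differed at 1 base, G796C, counted from the first base of the start codon with the base of Amd1 first. The 41 coding bases around it, taken from GENCODE M39 transcripts, are shown to give the base by which the coding reads can be told apart, which is in capitals. Those of Amd1 lie at chr10:40166162-40166202 and those of Amd2 at chr10:35586740-35586780.
Amd1: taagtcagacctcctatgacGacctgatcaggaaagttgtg
Amd2: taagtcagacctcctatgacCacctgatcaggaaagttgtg

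Along the whole transcripts, 3202 aligned columns held 10 mismatches and 4 gap columns (99.6% identity), and the longest identical run was 930 bases. Upstream of the transcripts the similarity ended. In the RefSeq promoter windows (build GRCm38.p6) the transcribed bases of both genes were the same over 48 bases to the end of the window, while 63 of the 250 bases before them matched (25.2%). The windows below are shown to mark that boundary, with 110 bases before the common run in lower case and its first 20 bases in capitals. On GRCm38.p6 the Amd1 window is chr10:40302167-40302296 and the Amd2 window chr10:35711872-35712001, both on the minus strand.
Amd1: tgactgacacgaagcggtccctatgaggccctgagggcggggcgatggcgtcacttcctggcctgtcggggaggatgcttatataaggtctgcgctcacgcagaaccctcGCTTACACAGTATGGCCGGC
Amd2: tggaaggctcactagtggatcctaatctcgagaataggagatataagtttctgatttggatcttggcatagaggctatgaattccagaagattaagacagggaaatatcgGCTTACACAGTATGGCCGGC

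RSEM divides a read that matches several genes between them, which leaves fractional expected counts. Expected counts were not whole (tolerance 0.005) in any of the 6 libraries for Amd1, Amd2, Oaz1, Odc1, Sms and Paox, and were whole in all 6 for Smox, Sat1, Srm and Azin1. Of the 50-base words in its transcripts, Amd2 shared 85.7% with other genes, Amd1 65.8%, Paox 25.7%, Odc1 23.6%, Oaz1 21.5% and Sms 17.4%. The shares were 2.71% for Sat1, 1.98% for Srm and 0 for Smox and Azin1. Thus the members with fractional counts were those with the largest shared part, and the Smox counts did not depend on how reads were divided between genes. Its TPM and mean transcript length still rest on the division of reads among its own 17 transcripts. For Paox, the partner with the most shared words was the predicted gene Gm19680, and Paox also overlaps Echs1 on the opposite strand. The sources used here do not give whether the counting used strand, so the low Paox counts are uncertain.

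S-adenosylmethionine decarboxylase is the step that commits S-adenosylmethionine to polyamine synthesis. Amd1 held 1345, 1014 and 902 CPM in WT replicates 1, 2 and 3, from expected counts of 19044.74, 15336.95 and 12149.97. In HSA-LR replicates 1, 2 and 3 it held 208, 347 and 190 CPM, from expected counts of 2194.46, 4309.84 and 2839.05. The groups did not overlap, and the highest HSA-LR library held less than the lowest WT library. The mean was 1087 ± 230 CPM (SD, n = 3) in WT and 249 ± 85.8 in HSA-LR, 4.37-fold lower, with a log2 fold change of -2.13 ± 0.27 (SE). Of the tested genes, 27 had a lower log2 fold change.

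Amd2 followed Amd1 at a lower level. It was given 128, 97.8 and 85.4 CPM in the WT libraries and 21.4, 42.2 and 23.8 CPM in the HSA-LR libraries (-1.83 ± 0.28 on the log2 scale). In both genes WT replicate 1 was the highest library and HSA-LR replicate 2 the highest of its group. Because the reads of the pair are mostly interchangeable, the division of counts between them is an estimate, and their values are not separate observations. Summed with 6 annotated processed pseudogenes (Amd-ps genes), the counts became whole within 0.011 in every library, at 21190, 17081 and 13561 in WT and 2422, 4858 and 3275 in HSA-LR. Amd1 was given 89.6% to 89.9% of this sum in WT and 86.7% to 90.6% in HSA-LR. The log2 fold change of the sum was -2.11 ± 0.27, close to that of Amd1 alone.

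**Figure D1:**
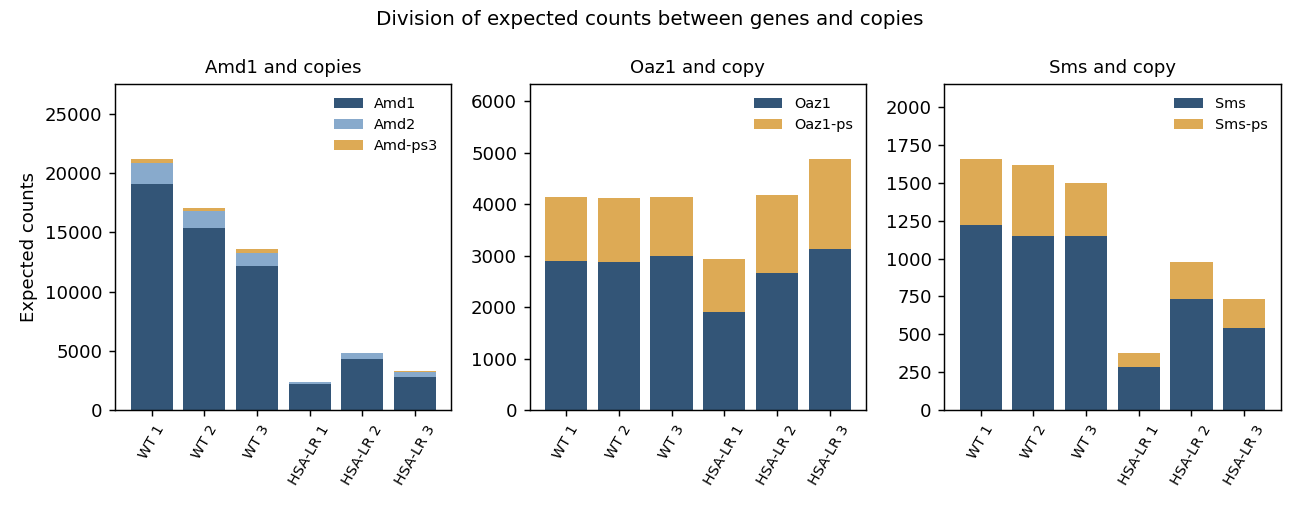
Expected counts (not scaled to library size) of Amd1, Oaz1 and Sms and of the near-identical genes to which reads were also assigned, stacked for each library (bars are single libraries; Amd pseudogenes with fewer than 3 counts in every library are not drawn). Amd1 takes most of the Amd counts in all 6 libraries, while Oaz1-ps takes a larger part of the Oaz1 counts in HSA-LR.

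Odc1 encodes ornithine decarboxylase, which starts the pathway. It held 208, 169 and 205 CPM in WT and 58.7, 141 and 114 CPM in HSA-LR. All HSA-LR values lay below all WT values, but HSA-LR replicate 1 was far below the other two. The log2 fold change was -0.89 ± 0.29, without a call in the main fit. It became -0.59 without HSA-LR replicate 1, and in that fit Odc1 was called. That library had the highest share of 7SL and 7SK RNA and the lowest summed skeletal fibre markers. Their part in the Odc1 value was not tested.

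Spermidine synthase (Srm) and spermine synthase (Sms) add the aminopropyl groups. Srm was low, at 3.67, 3.84 and 4.38 CPM in WT (52, 58 and 59 counts) and 6.17, 4.27 and 5.70 CPM in HSA-LR (65, 53 and 85 counts), and the groups overlapped (log2 fold change 0.44 ± 0.24). Sms, on the X chromosome, held 86.1, 75.9 and 85.4 CPM in WT and 27.2, 59.1 and 36.5 CPM in HSA-LR. The Sms groups did not overlap (log2 fold change -1.01 ± 0.26), and HSA-LR replicate 2 was again nearest to WT. Summed with its processed pseudogene Sms-ps, Sms had whole counts and a log2 fold change of -1.03 ± 0.26. The decarboxylases and Sms were thus all lower in every HSA-LR library than in any WT library, and Srm was not.

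Smox encodes spermine oxidase, which converts spermine directly to spermidine and releases hydrogen peroxide. It held 160, 133 and 126 CPM in WT (2261, 2010 and 1699 counts) and 26.0, 50.4 and 38.7 CPM in HSA-LR (274, 626 and 577 counts). The groups did not overlap. The mean was 140 ± 17.7 CPM (SD, n = 3) in WT and 38.4 ± 12.2 in HSA-LR, 3.63-fold lower, with a log2 fold change of -1.86 ± 0.23. Of the tested genes, 41 had a lower log2 fold change.

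Sat1 encodes spermidine/spermine acetyltransferase, the other route by which polyamines are broken down, and moved opposite to Smox. It held 14.6, 14.5 and 16.3 CPM in WT and 30.7, 29.6 and 28.2 CPM in HSA-LR. The 3 HSA-LR values lay close together and well above WT. The mean was 15.1 ± 0.988 CPM in WT and 29.5 ± 1.26 in HSA-LR, 1.95-fold higher (log2 fold change 0.96 ± 0.12). The summed macrophage markers were also above WT in each HSA-LR library, at 609, 202 and 282 CPM. So were those of fibroadipogenic progenitors, at 5213, 1703 and 2330 CPM. The part of either cell type in the Sat1 value was not tested. On TPM, in which HSA-LR replicate 1 had 7.88 and the WT libraries 8.95, 9.20 and 9.36, the Sat1 groups overlapped and the log2 difference was 0.36. Paox, the peroxisomal oxidase that acts on acetylated polyamines, held 4.33, 2.35 and 3.63 CPM in WT and 2.66, 3.95 and 6.02 CPM in HSA-LR, with overlapping groups (0.31 ± 0.36).

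**Figure D2:**
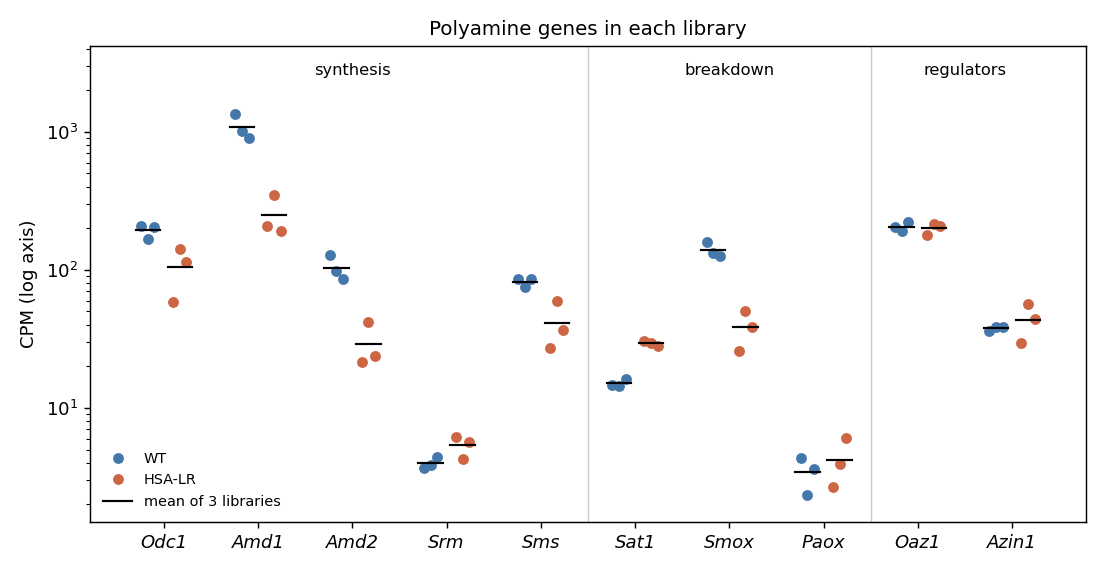
CPM (log axis) of the 10 genes in each library, with WT and HSA-LR points side by side and bars at the mean of 3 libraries, grouped into synthesis, breakdown and regulators. Odc1, Amd1, Amd2, Sms and Smox lie lower in all HSA-LR libraries, Sat1 lies higher, and the other 4 overlap.

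On CPM, the regulators did not separate the groups. Oaz1 encodes antizyme, whose translation needs a frameshift promoted by polyamines, and held 205, 191 and 222 CPM in WT and 180, 214 and 210 CPM in HSA-LR, a log2 fold change of -0.03 ± 0.14. Azin1, the antizyme inhibitor that frees ornithine decarboxylase from antizyme, held 36.1, 38.8 and 38.8 CPM in WT and 29.4, 56.2 and 44.0 CPM in HSA-LR (0.19 ± 0.21). The processed pseudogene Oaz1-ps was given part of the Oaz1 reads, and Oaz1 kept 70.1% to 72.2% of their sum in WT and 63.5% to 64.7% in HSA-LR. With both summed, the log2 fold change was 0.11 ± 0.15, so its sign depended on the division of reads while it stayed within its error of 0. On TPM, Oaz1 was lower in every HSA-LR library (56.5, 138 and 129) than in any WT library (164, 157 and 179), with a log2 difference of -0.73, while Azin1 overlapped.

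Of the 10 genes, 4 (Amd1, Amd2, Smox and Sms) were among the genes called lower across the whole table (edgeR, adjusted p below 0.05), against 7.48% of all tested genes, and 1 (Sat1) was among those called higher, against 4.28%. Over the alternative analyses, Amd1 and Smox were called in 19 of 19, Sat1 in 18, Amd2 in 17 of 18 and Sms in 12 of 19. The Sms call was lost on TPM, with either length correction, without any 1 WT library and without HSA-LR replicate 3. Sat1 lost its call on TPM and Amd2 without HSA-LR replicate 3. Odc1, without a call in the main fit, was called in 4 of 19 (DESeq2, TPM and without HSA-LR replicate 1 or 2). The 3 HSA-LR values lay below the 3 WT values in 5 genes, against 20.0% of all tested genes, and above them in 1, against 17.8%. Amd1 and Amd2 enter these counts separately, although their reads are mostly interchangeable and their values are not separate observations. Since the genes were selected on this comparison, these counts follow from the selection and are no test of it.

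**Figure D3:**
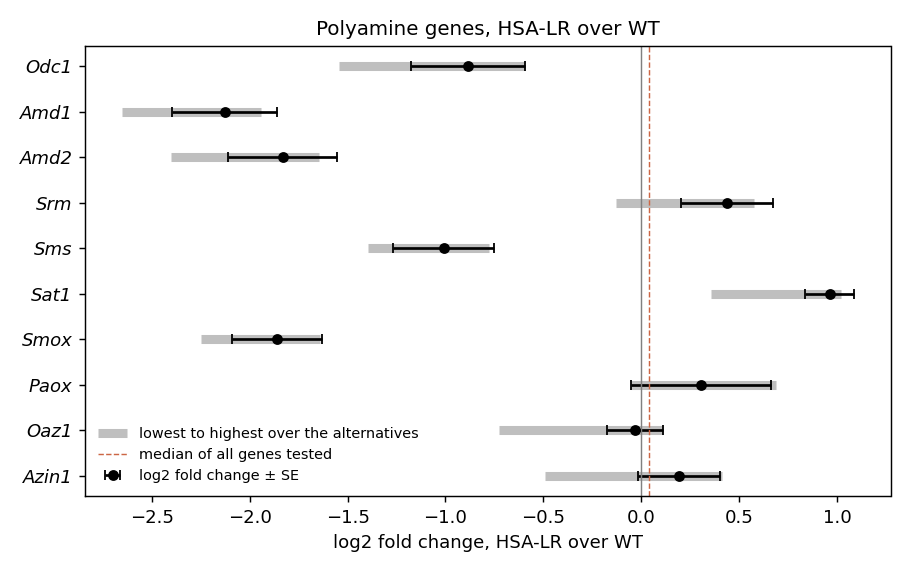
Log2 fold change of HSA-LR over WT (points, with SE bars) for the 10 genes, the range over the alternative analyses (grey bars) and the median of all tested genes (dashed line, 0.04). The grey bars of Srm, Paox, Oaz1 and Azin1 cross 0, and those of the other 6, which include the genes selected for their falls, do not.

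Levels were compared between genes on TPM, which corrects for transcript length and sums to the same total in each library. In WT, Amd1 was the most abundant of the 10 genes at 312, 250 and 191 TPM, above Oaz1 at 164, 157 and 179 TPM. In HSA-LR the order was turned, with Amd1 at 21.4, 67.4 and 41.3 TPM and Oaz1 above it in each library. Within single libraries, the ratio of Amd1 to Oaz1 TPM was 1.90, 1.60 and 1.07 in WT and 0.379, 0.488 and 0.319 in HSA-LR. This ratio is not affected by the total of a library, whereas TPM as a whole was shifted in HSA-LR, with a median log2 difference over all tested genes of -0.46, and HSA-LR replicate 1 had the lowest TPM of the 6 libraries for all 10 genes.

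After Amd1 and Oaz1, the WT order by mean TPM was Odc1 (60.5 ± 5.14, SD, n = 3), Smox (47.7 ± 7.17), Amd2 (20.5 ± 4.58), Sms (19.0 ± 1.34), Azin1 (10.8 ± 0.688), Sat1 (9.17 ± 0.207), Srm (2.03 ± 0.135) and Paox (1.25 ± 0.402). Neighbours in this order had separate ranges in WT except Amd2 and Sms, which overlapped. Sat1, ranked 8 in WT, had a mean of 12.2 ± 3.95 TPM in HSA-LR, where it ranked 4 and Smox 5, at 11.2 ± 6.01. Each WT library held 4.23 to 5.95 times as much Smox as Sat1 on TPM, and the HSA-LR libraries held 0.598, 1.06 and 0.922 times as much. Smox thus led Sat1 in every WT library, while in HSA-LR it was below Sat1 in replicates 1 and 3 and slightly above it in replicate 2.

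The mean length of the transcripts assigned to a gene, weighted by their abundance, is a separate column of the tables that was not used to select the genes. It varied in 8 of the 10 genes, as Amd2 and Srm kept 1 length throughout. Smox measured 1965, 1837 and 1988 bases in WT and 1588, 1781 and 1721 bases in HSA-LR, 12.1% shorter on average. Sms measured 2971, 2834 and 2550 bases in WT and 2325, 2484 and 2354 bases in HSA-LR, 14.3% shorter. Oaz1 measured 914, 937 and 872 bases in WT and 984, 990 and 958 bases in HSA-LR, 7.66% longer, and Sat1 1144, 1161 and 1158 bases against 1165, 1173 and 1207 bases, 2.38% longer.

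These 4 genes did not overlap between groups, and Amd1, Odc1, Azin1 and Paox did. For each of the 4, an exact permutation test (two-sided) returned p = 0.1, the smallest that 3 against 3 libraries allow, and an adjusted p of 0.782 over the 11337 tested genes with a varying length. Lengths were shorter without overlap in 8.23% of those genes and longer in 4.55%. No difference in transcript length therefore passed a test in this design. With an effective length offset, which takes these lengths into account, the log2 fold changes were -1.68 for Smox and -0.79 for Sms.

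**Figure D4:**
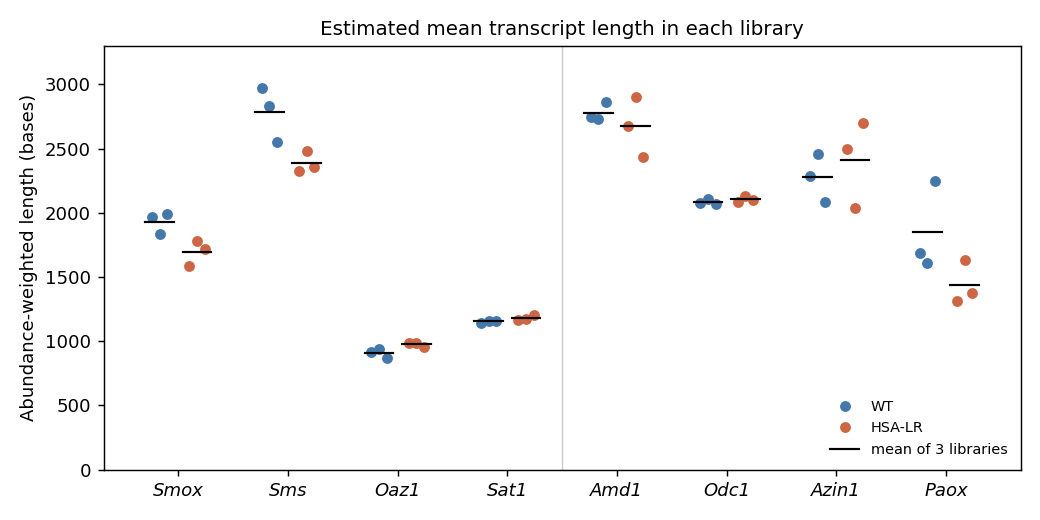
Abundance-weighted mean transcript length (bases) in each library for the 8 genes in which it varied, with bars at the mean of 3 libraries. Smox and Sms are shorter and Oaz1 and Sat1 longer in all HSA-LR libraries (left of the line), while the 4 genes on the right overlap.

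RefSeq promoter windows (250 bases before and 50 after the start, GRCm38.p6) were given for 8 of the 10 genes, and Srm and Azin1 had none. They were searched on both strands for 5 motifs. The GC box, GGGCGG, was present 6 times in the window of Smox, 4 times in that of Odc1 and in 1 of the 2 Sms windows (overlapping matches included), 3 times in each of the 2 overlapping Paox windows, 2 times in Sat1 and 1 time in Amd1. It was absent from Amd2, Oaz1 and the other Sms window, and 35.7% of all 32851 windows held it. Amd2 held none of the 5 motifs. The steroid receptor half-site AGAACA was found among these 8 genes only in Sat1, beside 19.0% of all windows. The E-box, CACGTG, was found only in 1 of the 2 windows of Sms (7.15% of all windows). Only the Oaz1 window held the exact TATA box letters TATAAA, at offset -3 from the start, as did 13.6% of all windows. Looser forms were not searched, so the tatataag in the Amd1 window printed above was not counted. A CRE core, TGACGT, was in none of the windows of these genes and in 7.51% of all windows. A match is a stretch of letters and not a measured binding site. The 120 bases before the start of Smox (chr2:131491742-131491861, plus strand) and Sat1 (chrX:155216450-155216569, minus strand) are shown as the breakdown enzymes that moved in opposite directions, with the searched motifs in capitals.
Smox: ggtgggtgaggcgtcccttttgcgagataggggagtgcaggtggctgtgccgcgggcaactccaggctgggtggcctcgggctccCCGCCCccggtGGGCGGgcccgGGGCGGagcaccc
Sat1: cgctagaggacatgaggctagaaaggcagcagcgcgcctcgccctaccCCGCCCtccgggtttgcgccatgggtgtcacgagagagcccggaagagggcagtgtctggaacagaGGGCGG

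The remaining genes of the pathway were taken as a list of 43 in 6 groups (arginine and ornithine supply, other antizymes and antizyme inhibitor, other acetylation and oxidation enzymes, polyamine transport, hypusination of eIF5A, and S-adenosylmethionine supply with methionine salvage). Of these, 30 were tested, 7 had no count in any library, 2 fell and 0 rose in edgeR's quasi-likelihood test (adjusted p below 0.05), where 7.48% of all tested genes were lower and 4.28% higher. So few calls among 30 genes do not set the list apart from the background. At an unadjusted p below 0.05 in the same test, 4 were lower and 2 higher. The shares above are for adjusted p, so these 2 counts have no background beside them and are not read as a result. DESeq2 called 1 higher (Slc47a1), and limma-voom and limma on TPM called 0 higher. The median log2 fold change of the 30 was -0.04, against 0.04 for all tested genes.

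Adi1 encodes a dioxygenase of the methionine salvage pathway, which recycles the methylthioadenosine released when spermidine and spermine are made. It held 24.9, 19.9 and 24.1 CPM in WT and 11.3, 13.5 and 9.85 CPM in HSA-LR. It fell by 0.99 ± 0.16 on the log2 scale (edgeR adjusted p = 0.0101), and all 3 HSA-LR libraries lay below WT. The other salvage and supply genes tested (Mat2a, Mat2b, Mtap, Mri1, Apip and Enoph1) did not pass, with log2 fold changes from -0.36 to 0.27. The Adi1 call was lost without WT replicate 1, WT replicate 3 or HSA-LR replicate 3, at adjusted p values of 0.0705, 0.0615 and 0.0599.

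Slc7a2, a cationic amino acid transporter that takes up arginine and ornithine, held 62.8, 44.2 and 49.1 CPM in WT and 25.4, 34.8 and 34.2 CPM in HSA-LR. It fell by 0.72 ± 0.18 on the log2 scale (edgeR adjusted p = 0.0357). The call was lost without any 1 WT library or without HSA-LR replicate 3 (adjusted p 0.0794 to 0.160), and with TPM (0.0647) or the length trend removed (0.0796). Of the other supply genes, Slc7a1, the second cationic transporter, had a log2 fold change of 0.61 ± 0.19 (adjusted p = 0.0696), and Oat, which links ornithine to glutamate, -0.15 ± 0.16 (adjusted p = 0.549).

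In the groups with no call, the gene with the lowest p was Slc47a1, an exporter of organic cations, among the transporters (0.67 ± 0.20, adjusted p = 0.0594), with 11.8, 13.3 and 14.3 CPM in WT and 15.2, 26.2 and 21.1 CPM in HSA-LR. In the other groups it was Azin2, the second antizyme inhibitor (-0.13 ± 0.34, adjusted p = 0.825), Sat2, a paralog of Sat1 (0.46 ± 0.40, adjusted p = 0.460) and Eif5a2, a form of the translation factor that carries hypusine made from spermidine (0.71 ± 0.48, adjusted p = 0.333). The main form Eif5a held 138 ± 9.66 CPM (SD, n = 3) in WT and 128 ± 19.7 in HSA-LR, and the hypusine enzymes Dhps and Dohh had log2 fold changes of 0.08 and 0.09. Neither the second antizyme Oaz2 (-0.02 ± 0.18, adjusted p = 0.961) nor the lysosomal polyamine exporter Atp13a2 (-0.01 ± 0.14, adjusted p = 0.969) passed the test. In the transport group, Atp13a3 (-0.39 ± 0.14, edgeR adjusted p = 0.0969), Atp13a5 (-0.93 ± 0.36, 0.116) and Gpc1 (-0.44 ± 0.22, 0.200) did not pass either. Their HSA-LR values all lay below WT, as in 20.0% of all tested genes, while those of Slc47a1 lay above.

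The genes whose centred log2 CPM profile over the 6 libraries lay nearest to that of Amd1, among 11872 protein coding genes, were Tpx2, F830016B08Rik, Cdh4, Actc1 and Qser1, at Euclidean distances of 0.134 to 0.704. Tpx2 encodes a spindle assembly factor, Cdh4 a cadherin and Actc1 cardiac alpha actin. Nearest to Smox were Prkab2, Hif1an, Me1, Gdap1 and F830016B08Rik, at distances of 0.270 to 0.435. Prkab2 encodes a regulatory subunit of AMP-activated protein kinase, Hif1an the asparaginyl hydroxylase of hypoxia-inducible factor and Me1 cytosolic malic enzyme. F830016B08Rik was on both lists. The likeness rests on a large difference between the groups and on the order of 3 libraries within each.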

How the data were processed

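Total RNA was extracted from quadriceps with TRIzol, and per the labels stranded libraries were made from RNA depleted of ribosomal RNA. The submitters' processing notes name Bowtie2 and RSEM 1.3.1 with the mouse genome GRCm39. The sources used here do not give the annotation release. The deposited expected counts are RSEM's estimates per gene in which reads matching several genes are divided. TPM values, deposited by the authors, are those counts divided by effective length and brought to the same total in each library. The authors also deposited the mean transcript length and effective length of each gene. FPKM was not used.

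Symbols and coordinates came from GENCODE M39, which matched 53400 of 53947 genes. Counts were rounded, filtered with filterByExpr, normalised by TMM and fitted with edgeR's quasi-likelihood pipeline, robust option (edgeR 4.0.16, limma 3.58.1, R 4.3.3), with genotype as the only term and Benjamini-Hochberg adjustment over all 13576 genes. Calls had an adjusted p below 0.05. CPM was computed with TMM-scaled library sizes, and each SE as the size of the log2 fold change over the square root of F. Read sharing was measured as 50-base words of a gene's annotated transcripts that occur in transcripts of other genes, with 5 of 6 Amd1 transcripts found in M39. Coding sequences and transcripts were aligned with Biopython 1.88. Lengths were compared by two-sided exact permutation of the 6 libraries (SciPy 1.17.1).

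The members and gene lists were chosen with earlier results of these data known. Named genes were the 10 members, every called gene of the other pathway list, the gene with the lowest p in each of its groups without a call, and the 5 protein coding genes of at least 1 CPM nearest to Amd1 and to Smox. Slc7a1, Oat, the salvage genes, the eIF5A genes, Oaz2, Atp13a2, Atp13a3, Atp13a5, Gpc1 and the sex-linked genes were added after their values were seen.

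At these depths 3 counts correspond to 0.2 to 0.262 CPM, which covers counting error only, as the reads carry no molecular identifiers and are not independent. On simulated counts, with 13363 genes tested, 37.3% of genes changed by 1 on the log2 scale and 77.8% of those changed by 2 were recovered. Of those changed by 0.5, only 1.49% were recovered, so a gene with a small change would rarely be called. Of the calls, 10.7% were false. Alternatives comprised limma-trend on log2(TPM + 0.1), limma-voom, DESeq2 1.42.0, other size factors and filters, length corrections, a replicate block, summed copies and each library left out. The sums for Oaz1 and Sms were added after seeing the data.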

Additional observations from a re-analysis of the deposited data

How the results depend on the processing

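The polyamine genes were selected on the comparison that the alternatives refit, so a direction kept is no independent support. Of the 10, Amd1, Amd2, Smox, Sms, Odc1 and Sat1 kept theirs in all alternatives run. The limma-trend fit on log2(TPM + 0.1), in which the median of all genes lay at -0.46, gave -2.65 for Amd1, -2.40 for Amd2, -2.25 for Smox, -1.55 for Odc1, 0.36 for Sat1, -0.13 for Srm, -0.73 for Oaz1 and -0.49 for Azin1. The effective length offset gave -0.17 for Oaz1, removal of the length trend gave -0.30 for Oaz1 and 0.75 for Sat1, and the sum with Oaz1-ps gave 0.11.

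Calls over all genes (1597, with 581 higher and 1016 lower) numbered 2428 with DESeq2 (1164 higher), 519 with TPM (50 higher and 469 lower), 705 with the effective length offset (260 and 445) and 799 with the replicate block (254 and 545), and 324 were higher with the length trend removed. Upper-quartile factors gave 728 higher and 781 lower. With 1 library left out they ranged from 166 without WT replicate 1 to 3294 without HSA-LR replicate 2 (42 to 1479 higher and 124 to 1815 lower), with 217 and 211 without WT replicates 2 and 3 and 185 without HSA-LR replicate 3. The number of polyamine genes called ranged from 3 (without HSA-LR replicate 3) to 6 over the left-out libraries. The cause was not tested.

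Of the other pathway genes, 0 to 2 were lower and 0 to 1 higher with 1 library left out. 1 was lower with TPM, with the length trend removed and with the replicate block (Adi1 in each). Slc7a2 lost its call with the block (-0.72, edgeR adjusted p = 0.0764). 1 was higher with DESeq2, upper-quartile factors or no filter on low counts (Slc47a1 in each) and with the replicate block (Aoc3). Sat2 changed sign with TPM (-0.14) and Azin2 without WT replicate 1, ranging from -0.28 to 0.11 with 1 library left out. Same-numbered libraries did not deviate together (correlations 0.000517, -0.0949 and 0.228), so the numbers were not taken to pair them, and the block left 5 polyamine genes called.

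The share of words in other genes was, at 31 and 100 bases, 30.4% and 9.88% for Odc1, 69.8% and 56.5% for Amd1, 90.9% and 72.9% for Amd2, 9.29% and 0 for Srm, 18.7% and 16.4% for Sms, 6.91% and 0.126% for Sat1, 30.3% and 22.6% for Paox, and 24.5% and 15.1% for Oaz1, and 0.0886% at 31 bases for Azin1. Srm and Paox, at fewer than 100 counts per library, are the members whose values depth limits most.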
